A study of Homo sapiens with 8 samples.

Results

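The transcriptome of THP-1 cells under solvent alone was described from the 4 DMSO arrays among the 8 Affymetrix arrays of a study of compounds against the kinase PAK1 in acute myeloid leukaemia. THP-1 is an established human monocytic leukaemia line that carries a fusion of the genes MLL and AF9. The cells came from ATCC, were grown in RPMI-1640 with foetal calf serum, and were given DMSO for 5 h in a volume equal to that of the compounds. Every array used here therefore holds the same line, without added genotype or stimulus, and the arrays of compound-treated cells were not used. The labels do not say whether the 4 DMSO samples were separate cultures, and a single line stands for no other monocytic leukaemia. Of 53617 probes, 16098 carried exactly 1 gene symbol, and the probe with the highest mean of each gene gave 14884 genes. Each gene received a percentile rank within each array, from 0 for the dimmest to 100 for the brightest, and its 4 ranks were averaged. Values are given as ranks unless a log2 value is named, and errors are SDs over the 4 arrays.

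Monocytes arise from marrow progenitors under transcription factors such as SPI1 and IRF8, and their promonocyte stage fills azurophil granules with serine proteases held on the proteoglycan serglycin. Fusions of MLL, a histone methyltransferase, hold progenitors in a proliferating state through factors such as MYB, MEIS1, MEF2C and the HOXA genes. A line of this kind joins a monocytic programme to constant division, and mature macrophage or neutrophil genes are usually weak in it without a differentiating stimulus.

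The 4 arrays formed a pair of pairs that the labels do not mention. The median log2 value over all probes was 5.51 in DMSO 1 and in DMSO 2, 6.03 in DMSO 3 and 6.05 in DMSO 4. Ranks over the 14884 genes correlated at a Spearman coefficient of 0.995 between DMSO 1 and 2, 0.981 between DMSO 3 and 4, and 0.956 to 0.962 across the pairs, as a description of arrays that share 1 probe set. A difference between pairs cannot be told apart from any difference in when or how the pairs were prepared. Ranks order probe signals, which also differ with each probe's own response: in 779 genes with more than 1 probe, the brightest and dimmest probes lay a median of 13.2 points apart among all probes (quartiles 4.10 and 28.3). The named genes covered 11915 protein-coding genes, 59.4% of those in the gene reference, and 417 of the 477 probes in the brightest 1% of the table had no gene name here. The most expressed genes are therefore those of the named genes only. No detection calls were used, so a low rank does not say that a gene was off. Probe positions were not checked, so a high rank may come from a copy of the gene at another locus. Genes of the HOXA cluster, ACTB, ELANE, the proteasome, MHC class II and NADPH oxidase were not among the named genes and are not analysed here.

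Most measured markers of a monocytic line ranked high. They were listed with earlier results of these data known, so their ranks are no test of the label. Of 16 markers listed for a monocytic line, 8 were measured, with a median rank of 93.7, and 6 ranked above 75. TYROBP, the adaptor of activating myeloid receptors, ranked at 99.86, 99.87, 99.52 and 99.46 in DMSO 1 to 4. CSF1R, the receptor for macrophage colony-stimulating factor, ranked at 96.2, 96.7, 95.5 and 87.4, lowest in DMSO 4. The exceptions were CD4, at 67.5 ± 11.9, and CD14, the lipopolysaccharide co-receptor of mature monocytes, at 49.2 ± 3.96. None of the measured markers listed for T, B, NK, erythroid, megakaryocytic, neutrophil, epithelial, fibroblast or endothelial cells ranked above 75. The highest of them were PF4, a platelet chemokine, at 57.3, CLDN5, an endothelial junction protein, at 53.9, and PAX5, a B cell factor, at 52.8. PAX5 rested on DMSO 3, where it ranked at 76.5 against 41.1 to 47.0 in the other arrays. The summed rank of the monocytic markers ranged from 683.3 to 700.4 over the arrays.

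Of the 125 genes at rank 99 or above, 51 were members of a gene list. SRGN, which encodes serglycin, held the first place, with log2 values of 13.71, 13.70, 13.14 and 13.05 in DMSO 1 to 4 and a rank of 99.99 or more in each. YBX1, a cold-shock protein that binds messenger RNA, came next, with log2 values of 13.47, 13.45, 13.00 and 13.06. PPT1, a lysosomal thioesterase, ranked at 99.97 ± 0.01, and OAZ1, the antizyme that limits polyamine synthesis, at 99.96 ± 0.05. These 4 genes ranked above 99.9 in every array, and of them only OAZ1 differed between the pairs by limma, being 0.91 ± 0.10 (SE) higher on the quantile-normalized log2 scale in DMSO 3 and 4 at an adjusted p of 0.0091. LAPTM5, a lysosomal membrane protein of blood cells, ranked at 99.93 ± 0.02. CHI3L1, a secreted chitinase-like protein known from macrophages, reached 99.87 ± 0.08, and its lowest array was DMSO 3 at 99.76. Among RNAs that code for no protein, RMRP, the RNA of the RNase MRP complex, ranked at 99.87 ± 0.15 and LINC00987, a long non-coding RNA, at 99.86 ± 0.05.

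Most genes at the top were shared by the pairs. A mean rank of at least 95 in both pairs was found for 523 genes (3.51% of all genes), which was 70.5% of the genes at that level in DMSO 1 and 2 and 72.6% of those in DMSO 3 and 4. Protein-coding genes made up 500 of the 523, or 95.6%, against 80.1% of all genes. The other 23 included RMRP, MALAT1, TERC (the telomerase RNA), SCARNA12 and the microRNA entry MIR4737. Leaving out any array gave between 524 and 535 genes.

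**Figure D1:**
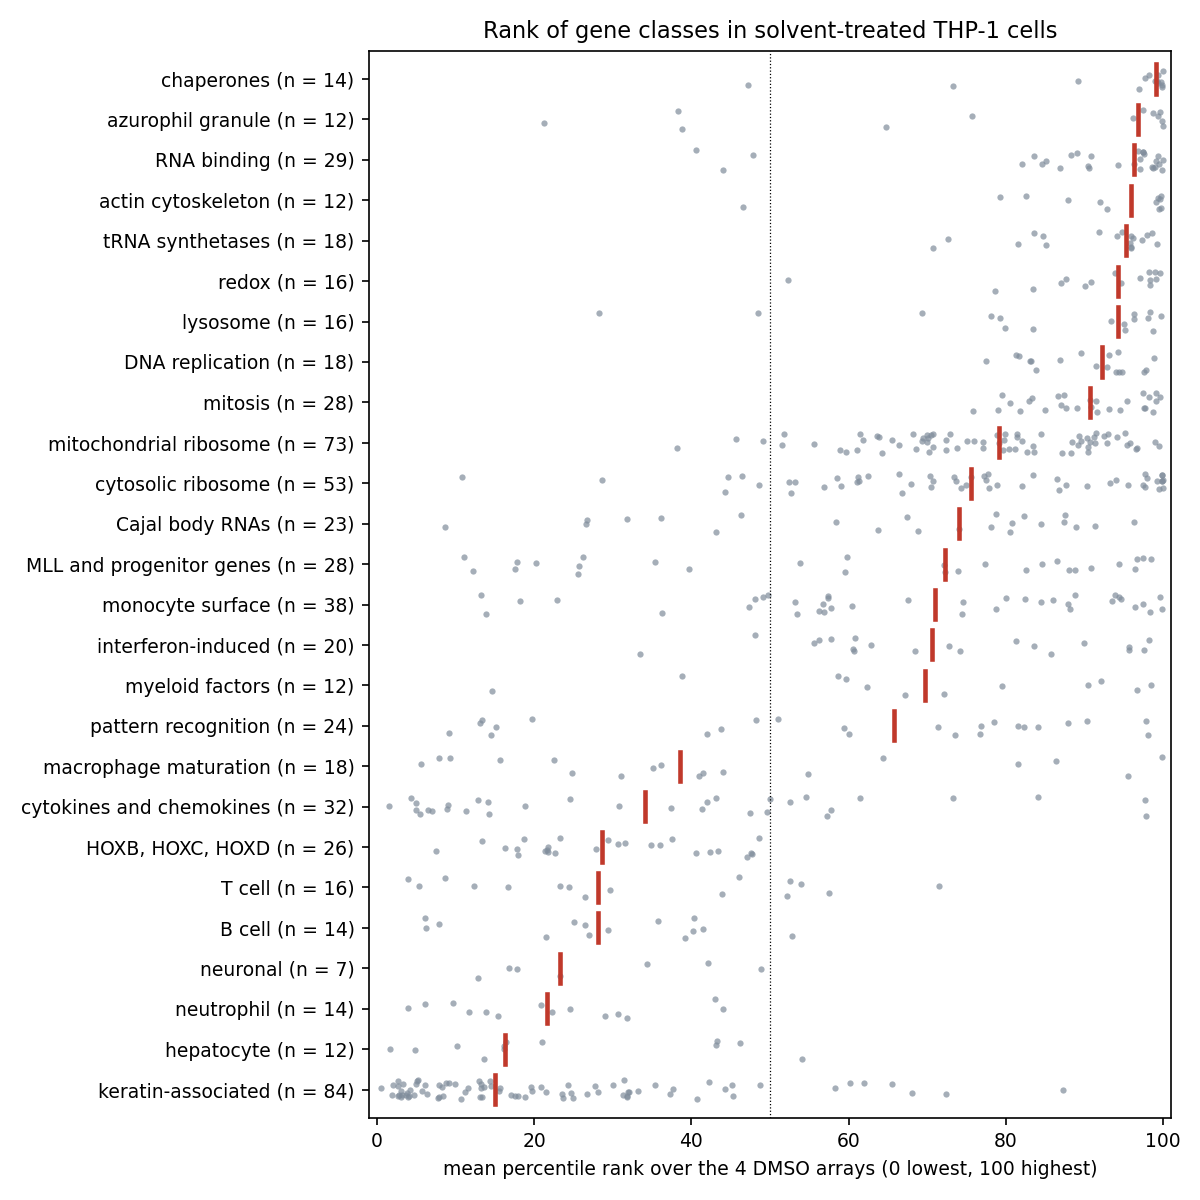
Mean percentile rank over the 4 DMSO arrays (horizontal axis) for the genes of 26 classes (rows), with 1 grey point per gene and a red bar at the median of each class. Chaperones (median 99.2) lie at the right end and keratin-associated proteins (median 15.01) at the left end, and cytosolic ribosomal proteins spread from 10.7 to 99.95.

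Genes of protein synthesis spanned most of the range. The cytosolic ribosomal proteins, which build the ribosome, had a median rank of 75.6 over 53 measured genes, and 13 ranked at 95 or above. RPL41 and RPS28 ranked at 99.95, and RPS27 at 99.97, 99.97, 99.87 and 99.85 in DMSO 1 to 4. RPL12 reached 99.88 ± 0.03. At the other end stood RPS27L at 28.7 ± 2.13 and RPL10L, a copy known from testis, at 10.7 ± 1.24. Ribosomal protein genes have many processed pseudogenes, so the probe signal of any 1 of them is uncertain. Probe positions were not checked, and the signals given for RPS27 and RPS28 may come from copies at other loci. Between the pairs the class moved in both directions by limma, with 5 of 53 higher and 17 lower in DMSO 3 and 4, against 13.0% higher and 14.0% lower among all genes. RPL19 was 1.31 ± 0.11 (SE) higher on the log2 scale at an adjusted p of 0.0072, and RPL11 was lower by the same test, from ranks of 99.55 and 99.60 to 95.22 and 96.28.

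The promoters of 3 of these genes and of EEF2 are shown because the start of the transcript carries the feature that marks messages of the translation machinery. That feature is a C at the start followed by a run of C and T, which ties translation of these messages to growth signalling. The promoters are those of the annotated genes, and whether the ranked probes read the same loci was not checked. In the promoters RefSeq gives for GRCh38.p14, a C followed by at least 4 letters that are each C or T, beginning within 5 bases of the annotated start, was found in 36 of 48 cytosolic ribosomal protein genes with a sequence (75%). The share over all 9701 protein-coding genes with a sequence was 22.7%, and it was 21.5% for the mitochondrial ribosomal proteins, which serve another ribosome. The class was also at 75% among its 12 sequenced members that ranked at 95 or above. Each window runs from 100 bases before to 30 bases after the start, 5′ to 3′. RPS27 lies at chr1:153990662-153990791 on the plus strand, RPL12 at chr9:127451377-127451506 on the minus strand, RPS28 at chr19:8321396-8321525 on the plus strand and EEF2 at chr19:3985434-3985563 on the minus strand. Capitals mark that run and, where present, a TATAA between -40 and -16.
RPS27 promoter: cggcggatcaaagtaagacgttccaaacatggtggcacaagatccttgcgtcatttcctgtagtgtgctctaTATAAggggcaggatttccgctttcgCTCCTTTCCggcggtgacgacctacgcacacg
RPL12 promoter: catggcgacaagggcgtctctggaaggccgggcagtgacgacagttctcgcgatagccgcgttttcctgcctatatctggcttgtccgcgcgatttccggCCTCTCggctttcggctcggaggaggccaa
RPS28 promoter: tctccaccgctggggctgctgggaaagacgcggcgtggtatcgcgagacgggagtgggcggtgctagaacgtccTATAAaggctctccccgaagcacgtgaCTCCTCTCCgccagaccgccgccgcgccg
EEF2 promoter: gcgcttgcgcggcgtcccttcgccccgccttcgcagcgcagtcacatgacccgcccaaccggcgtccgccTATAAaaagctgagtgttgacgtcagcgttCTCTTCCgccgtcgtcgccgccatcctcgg
The run is 9 bases long in RPS27 and RPS28, 7 in EEF2 and 6 in RPL12, and RPL12 has no TATAA in that interval. Over the whole class a TATAA was present in 7 of 48 promoters (14.6%) and in 2 of the 12 at rank 95 or above.

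Most of the rest of the translation apparatus ranked high. EEF2, the elongation factor that moves the ribosome along the message, ranked at 99.85 to 99.87 in all 4 arrays. EEF1G, a subunit of the other elongation complex, ranked at 98.8 ± 1.04, and EIF5A, whose gene also has close copies, at 48.5 ± 2.67. The 18 measured tRNA synthetases, which charge transfer RNAs, had a median of 95.3, with 16 above 75, and NARS1 at 99.2 ± 0.20 and EPRS1 at 98.6 ± 0.23 led them. HARS1 was lowest at 70.8 ± 1.86. The 13 initiation factors had a median of 87.1, led by EIF1, which selects the start codon, at 98.3 ± 0.36. Their lowest member was EIF5A, which is in the lists of both elongation and initiation factors. EIF4E3 differed between arrays, at 72.9 and 74.9 in DMSO 1 and 2, 58.3 in DMSO 3 and 29.2 in DMSO 4. Mitochondrial ribosomal proteins had a median of 79.2 over 73 genes, from MRPL23 at 38.2 ± 4.94 to MRPS21 at 99.4 ± 0.12.

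Chaperones had the highest median of the 49 lists with a measured member. Over the 14 measured of 33 listed genes it was 99.2, and 11 ranked at 95 or above in both pairs. HSPB1, a small heat-shock protein, ranked at 99.92, 99.93, 99.99 and 99.98, and the calcium-binding chaperone CALR of the endoplasmic reticulum at 99.88, 99.90, 99.97 and 99.95. HSPA9, the mitochondrial HSP70, went the other way, at 99.73, 99.74, 99.02 and 98.57. By limma 3 of the 14 were higher and 8 lower in DMSO 3 and 4, against 13.0% and 14.0% of all genes. PPIA, a cyclophilin with many gene copies, ranked at 73.3 ± 7.56, and HSPA6, a strictly stress-induced HSP70, at 47.2 ± 10.98, the lowest of the list.

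Genes of RNA handling and of the cell skeleton formed the next tier. Nuclear and spliceosomal RNA-binding proteins had a median of 96.3 over 29 genes, led by YBX1, PTBP1, a splicing repressor, at 99.86 ± 0.04, and HNRNPU, a nuclear scaffold protein, at 99.43 ± 0.04. The lowest were the core spliceosome proteins SNRPE at 44.0 ± 1.84 and SNRPG at 40.6 ± 4.71. The 12 measured actin genes, of 31 listed, had a median of 96.0. They were led by the leukocyte actin bundler LCP1 at 99.74 ± 0.13, the membrane linker MSN at 99.72 ± 0.07 and PFN1, a monomer-binding protein, at 99.61 ± 0.31. CFL1, cofilin, was the exception at 46.6 ± 1.46. MBNL1, a splicing factor, also stood among the 25 highest genes, at 99.85 ± 0.06. The low ranks of CFL1, SNRPE and SNRPG repeated in all 4 arrays, which says nothing of the probe's own response.

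Genes of the azurophil granule were among the brightest of all. Of 23 listed granule and promonocyte genes 12 were measured, with a median rank of 96.8, and 7 ranked at 95 or above in both pairs. PRTN3, proteinase 3, ranked at 99.90, 99.92, 99.92 and 99.89 in DMSO 1 to 4. AZU1, azurocidin, an inactive protease homologue that kills bacteria, ranked at 99.39, 99.35, 99.29 and 99.31. Neither gene passed the limma test between the pairs, with adjusted p of 0.91 for PRTN3 and 0.66 for AZU1. PLAC8, expressed in myeloid progenitors, ranked at 99.6 ± 0.28. CFD, complement factor D, ranked at 99.1, 99.2, 97.2 and 99.4 and CTSG, cathepsin G, at 96.2, 96.5, 93.7 and 98.2, each lowest in DMSO 3. LYZ, lysozyme, ranked at 99.3, 99.3, 98.1 and 93.1, lowest in DMSO 4.

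The same list also held a low end. MPO, myeloperoxidase, the main enzyme of the azurophil granule, ranked at 43.2, 37.8, 39.6 and 34.4. BPI, a bactericidal granule protein made late in neutrophil development, ranked at 17.7, 21.3, 24.1 and 21.7. IGLL1, a surrogate light chain of early progenitors, ranked at 38.3 ± 4.33, and CST7, a cathepsin inhibitor, at 64.7 ± 3.90. The protease genes and MPO were thus separated by more than 50 points in every array. NKG7, a granule membrane protein of cytotoxic cells, differed between the pairs, with ranks of 66.59 and 63.05 in DMSO 1 and 2 and of 84.7 and 88.2 in DMSO 3 and 4 (limma, 1.44 ± 0.15 SE on the log2 scale, adjusted p = 0.0084). Secondary granule and neutrophil genes had a median of 21.6 over 14 genes, none above 44.0, from CEACAM8 at 3.94 ± 0.53 to CXCR2 at 44.0 ± 6.33.

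AZU1, PRTN3 and CFD neighbour each other, with ELANE between PRTN3 and CFD. Their promoters are shown because they lack the CpG density of most bright genes although their genes rank at the top. PRTN3 lies at chr19:840899-841028 on the plus strand, AZU1 at chr19:827737-827866 on the plus strand and CFD at chr19:859564-859693 on the plus strand, in GRCh38.p14 as RefSeq gives them, and CTSG, from another locus, at chr14:24576221-24576350 on the minus strand. The windows run again from 100 bases before to 30 after the annotated start, and capitals mark a TATAA.
PRTN3 promoter: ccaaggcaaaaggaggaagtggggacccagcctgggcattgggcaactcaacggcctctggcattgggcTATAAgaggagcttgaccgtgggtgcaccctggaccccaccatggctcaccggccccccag
AZU1 promoter: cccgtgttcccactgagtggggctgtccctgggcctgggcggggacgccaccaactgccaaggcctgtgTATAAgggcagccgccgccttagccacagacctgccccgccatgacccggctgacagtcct
CFD promoter: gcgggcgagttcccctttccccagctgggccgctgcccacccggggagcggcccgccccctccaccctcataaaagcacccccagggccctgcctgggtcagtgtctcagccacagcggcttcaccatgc
CTSG promoter: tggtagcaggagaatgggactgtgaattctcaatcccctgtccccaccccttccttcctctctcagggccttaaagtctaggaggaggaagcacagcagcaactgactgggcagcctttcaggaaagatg
The TATAA begins at -31 in both PRTN3 and AZU1, and CFD and CTSG have none in the interval searched. The ratio of observed to expected CpG from 250 bases before to 50 bases after the start was 0.273 in PRTN3, 0.276 in AZU1, 0.360 in CFD and 0.143 in CTSG, and none of the 7 granule genes with a sequence reached 0.6, the usual mark of a CpG island. Among all genes with a sequence 70.8% did. GAGGAA, a form of the SPI1 motif, was present on either strand in PRTN3 and CTSG and in 27.8% of all promoters, and TTNCNNAA, a loose form of the C/EBP motif, in PRTN3, AZU1 and CTSG and in 28.4% of all. The latter was in 4 of 7 granule promoters (57.1%), and in 59.8% of the promoters of genes at ranks under 5. In gene order the ranks were 99.86 for PTBP1, 97.29 for PLPPR3, a neuronal membrane protein, 99.34 for AZU1, 99.91 for PRTN3, 98.74 for CFD, 81.07 for MED16 and 79.06 for R3HDM4, and KISS1R beyond them ranked at 51.23.

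**Figure D2:**
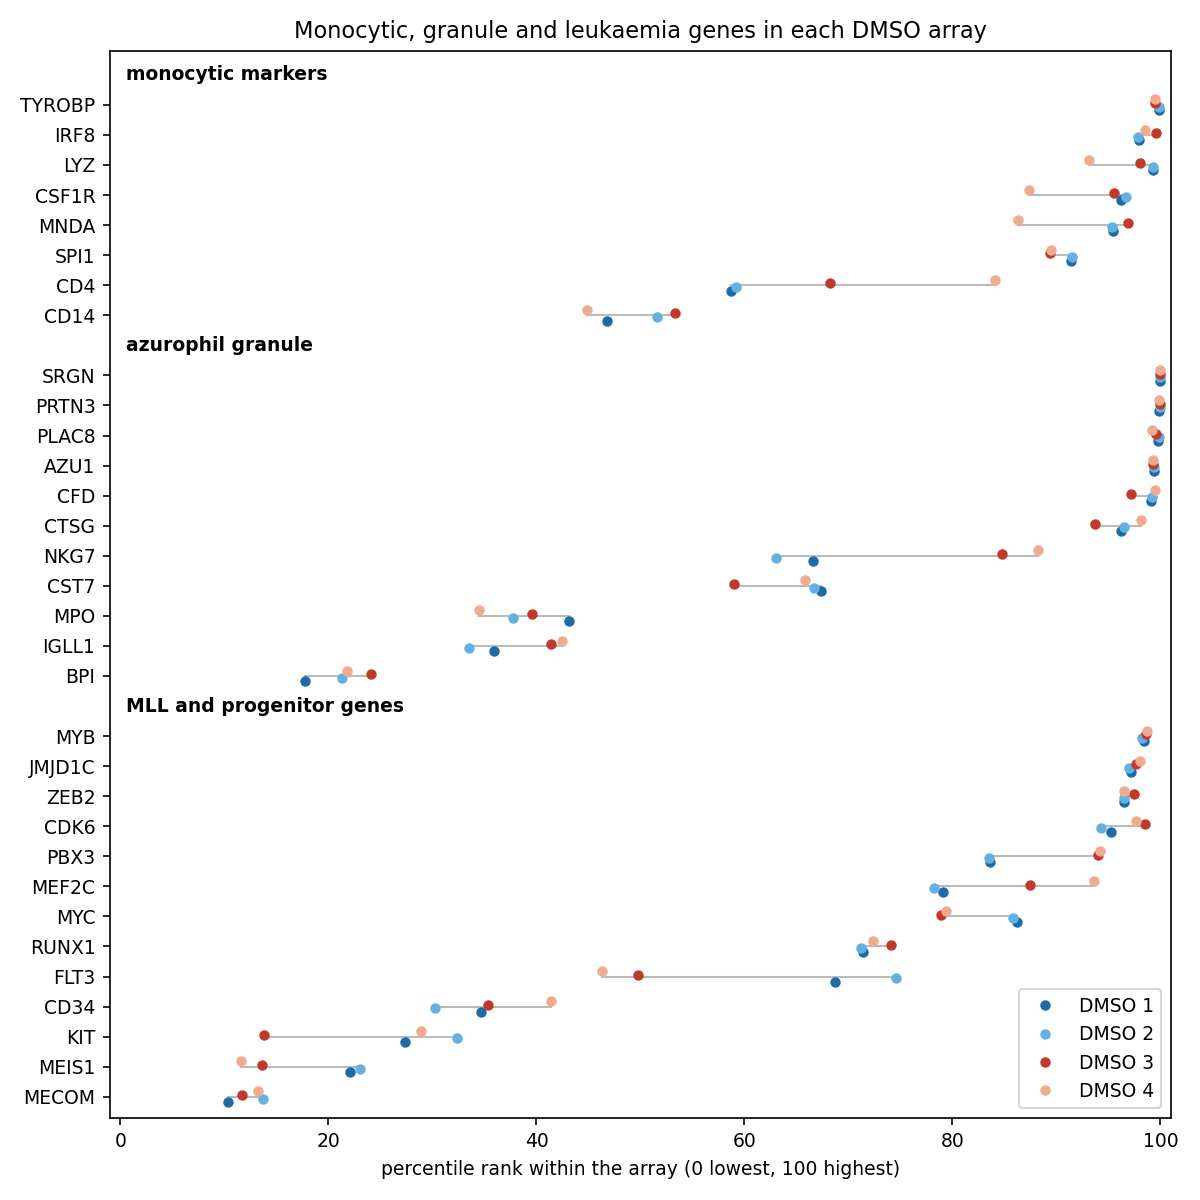
Percentile rank within each array (horizontal axis) of monocytic markers, azurophil granule genes and genes of the MLL and progenitor list (rows), with 1 coloured point per DMSO array and a grey line from the lowest to the highest of the 4. SRGN, PRTN3 and AZU1 coincide near 100, MPO lies between 34.4 and 43.2, and FLT3 spreads from 46.3 in DMSO 4 to 74.6 in DMSO 2.

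Monocyte surface and signalling genes ranged widely. Over 38 measured genes the median rank was 71.0, and 17 ranked above 75. LYN, a Src-family kinase of myeloid cells, ranked at 98.4 ± 0.64, CST3, cystatin C, at 96.4 ± 2.44, and CD53, a leukocyte tetraspanin, at 94.6 ± 2.49. MNDA, a nuclear antigen of myeloid cells, ranked at 95.5, 95.3, 96.8 and 86.3, and CCR2, the receptor by which monocytes follow CCL2, at 95.05, 95.40, 89.78 and 72.68, both lowest in DMSO 4. VCAN, a proteoglycan of inflammatory monocytes, ranked at 65.2, 64.6, 93.5 and 75.1, highest in DMSO 3. The calgranulins of mature monocytes stood lower, with S100A9 at 53.5 ± 6.58, S100A8 at 47.3 ± 11.8 and S100A12 at 13.8 ± 6.16. FCN1, ficolin, ranked at 49.7 ± 1.60, CD86, a co-stimulatory ligand, at 36.2 ± 8.94 and CD48 at 13.3 ± 1.35. By limma 4 of the 38 were higher in DMSO 3 and 4 and 7 lower, against the 13.0% and 14.0% of all genes, among the latter S100A6, a calcium-binding protein, with ranks of 71.2, 71.3, 44.1 and 41.0.

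Genes of the mature macrophage were mostly in the lower part, with a few that were not. Their median over 18 genes was 38.6, and 6 ranked at 25 or below. CD163, the haemoglobin scavenger receptor, ranked at 9.47, 9.98, 29.8 and 13.2, MSR1, a lipoprotein scavenger receptor, at 9.28 ± 2.52 and MMP12, macrophage elastase, at 7.95 ± 1.61. TREM2, a lipid-sensing receptor, was an exception at 93.0, 93.4, 97.5 and 98.6, and APOC1, an apolipoprotein, at 86.3 ± 2.76. TREM2 was higher in DMSO 3 and 4 by limma (1.02 ± 0.15 SE on the log2 scale, adjusted p = 0.014), and APOE, which shares a gene cluster with APOC1, fell from 55.81 and 56.74 to 26.64 and 24.65 (adjusted p = 0.0072 by limma). The 4 genes above rank 75 were CHI3L1, TREM2, APOC1 and GPNMB.

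Among transcription factors of the monocyte lineage, IRF8, ZEB2, EGR1 and SPI1 had the highest ranks. IRF8, which directs progenitors to monocytes, ranked at 97.94, 97.83, 99.56 and 98.55, and SPI1, the master factor of myeloid cells, at 91.4, 91.5, 89.4 and 89.5. ZEB2, a repressor needed for monocytes, ranked at 96.7 ± 0.45 and EGR1, an early response factor that favours macrophages, at 92.1 ± 0.50. KLF4 ranked at 59.7 ± 2.42, IRF5 at 58.6 ± 3.87, MITF at 38.8 ± 2.34 and IRF4, a factor of dendritic and B cells, at 14.7 ± 3.30. Of the 12 measured factors, 1 was higher and 0 lower in DMSO 3 and 4 by limma at an adjusted p under 0.05, against 13.0% and 14.0% of all genes. It was the dim IRF4, with 0.47 ± 0.10 (SE) on the log2 scale at an adjusted p of 0.031.

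Innate receptors and their adaptors spanned most of the range. PYCARD, the inflammasome adaptor, ranked at 97.8 ± 0.44, IRAK3, a brake on Toll-like receptor signalling, at 98.1 ± 1.02, and CGAS, the sensor of cytosolic DNA, at 90.4 ± 3.94. TLR2, the lipopeptide receptor, ranked at 87.9 ± 1.06 and TLR4, the lipopolysaccharide receptor, at 78.6 ± 5.68. Its partner LY96, which holds the lipid, ranked at 1.46, 1.27, 25.7 and 8.01, lowest in DMSO 1 and 2. The endosomal receptors TLR7, TLR8 and TLR3 ranked at 19.7 ± 7.70, 15.1 ± 4.21 and 13.3 ± 9.13, and TLR10 at 13.2 ± 3.11. Over the 24 measured genes the median was 65.8. In MHC class I presentation B2M, the light chain, ranked at 98.9, 98.8, 92.1 and 89.9 and was lower in DMSO 3 and 4 by limma (adjusted p = 0.0072), while TAPBP, the peptide loading factor tapasin, ranked at 96.2 ± 2.04.

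In the list of MLL fusion and progenitor genes, the high and the low members were far apart. Of 38 listed genes 28 were measured, with a median rank of 72.2, 12 above 75 and 5 at 25 or below. MYB, the progenitor factor on which MLL leukaemias depend, ranked at 98.45, 98.22, 98.58 and 98.73. JMJD1C, a demethylase-like cofactor, ranked at 97.5 ± 0.47, and the cell-cycle kinase CDK6, a direct MLL-fusion target, at 95.2, 94.2, 98.5 and 97.7. MYC ranked at 86.2, 85.8, 78.9 and 79.4. MYB, JMJD1C and ZEB2 kept their rank within 5 points between the pairs, as did 98.96% of all genes at ranks of 95 or above. MYC did not, and of all genes at ranks of 75 to 90, 56.8% did. In the whole list 16 of 28 kept their rank, against 58.0% of all genes.

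PBX3 and MEIS1, which both encode partners of HOX proteins, lay at opposite ends. PBX3 ranked at 83.61, 83.55, 94.03 and 94.15, and MEIS1 at 22.05, 23.04, 13.63 and 11.59. The pairs did not overlap in either gene, as in 70.5% of all genes. On the quantile-normalized log2 scale the genes moved in opposite directions. PBX3 was 1.08 ± 0.10 (SE) higher in DMSO 3 and 4 (limma, adjusted p = 0.0076) and MEIS1 fell by 0.725 (limma, adjusted p = 0.016). The deposited log2 values of MEIS1 were 4.92, 4.995, 4.913 and 4.768 in DMSO 1 to 4. MEF2C, a factor of myeloid leukaemia stem cells, ranked at 79.0, 78.2, 87.5 and 93.6. FLT3, a receptor kinase, ranked at 68.7, 74.6, 49.8 and 46.3 and was lower in DMSO 3 and 4 (limma, adjusted p = 0.010). Other progenitor genes of the list lay on both sides, with LMO2 at 73.9, RUNX1 at 72.3 and GATA2 at 53.8, and CD34 at 35.4 ± 4.59, KIT at 25.6 ± 8.14, PROM1 at 20.2 ± 4.68 and MECOM, also called EVI1, at 12.2 ± 1.53. IGF2BP2, a messenger RNA binder, ranked at 90.8 ± 1.32 and its relative IGF2BP3 at 11.1 ± 1.94. In all, 5 of the 28 were higher and 5 lower between the pairs by limma, against the 13.0% and 14.0% of all genes.

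HOXB, HOXC and HOXD genes, which pattern the body axis, were uniformly in the lower part. Their median over 26 genes was 28.6, with none above 48.6. The highest were HOXC12 at 48.6 ± 6.08 and HOXD11 at 47.7 ± 2.21, and the lowest was HOXB5 at 7.55 ± 1.90. The microRNA entry MIR196B, which lies inside the HOXA cluster, ranked at 67.85, 68.02, 74.57 and 90.21, higher than all 26 in every array. It was named after its values were seen.

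Genes of the dividing cell ranked high without exception among those measured, so that the word resting, for these cells, means only without compound or stimulus. All 18 measured replication genes, of 37 listed, ranked above 75, with a median of 92.2. MCM3, a subunit of the replicative helicase, ranked at 98.9 ± 0.12 and TYMS, thymidylate synthase, at 97.6 ± 0.70. All 28 measured mitosis genes, of 32 listed, also ranked above 75, with a median of 90.7. CDC20, the activator of the anaphase-promoting complex, ranked at 99.52, 99.54, 99.85 and 99.83, MKI67, the proliferation antigen, at 99.1 ± 0.16 and TOP2A, topoisomerase II alpha, at 99.1 ± 0.26. MAD2L1, a checkpoint protein, was lowest at 75.9 ± 8.50, with 83.3 and 83.0 in DMSO 1 and 2 against 69.9 and 67.2 in DMSO 3 and 4. Of the 28, limma found 8 higher and 4 lower in DMSO 3 and 4, against 13.0% and 14.0% of all genes.

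Tumour suppressors were split in a way that repeated in every array. RB1, the retinoblastoma protein gene, ranked at 97.2 ± 1.03, NF1, which switches off RAS, at 94.4 ± 0.80 and RBL1, a relative of RB1, at 93.2 ± 2.56. CDKN2A, which encodes the CDK4 and CDK6 inhibitor p16, ranked at 10.2, 12.8, 21.3 and 21.2, and its chromosomal neighbour MTAP, an enzyme of methionine salvage, at 21.5, 20.1, 23.6 and 24.1. TSC1 and TSC2, which restrain mTOR, ranked at 86.3 ± 0.72 and 75.7 ± 0.94, and WT1 at 78.1 ± 3.23. Of the 11 measured genes 9 kept their rank within 5 points between the pairs, and CDKN2A and STK11 did not. The share was 58.0% of all genes and 56.8% of those at ranks of 75 to 90, where the median of the list lies.

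PAK2 was the highest of the 3 measured PAK kinases, which act downstream of the GTPases RAC and CDC42. PAK1 was not among those measured. PAK2 ranked at 90.65, 91.18, 90.26 and 91.18, PAK4 at 49.4, 54.5, 65.5 and 64.2, and the neuronal PAK5 at 22.5 ± 6.03. PAK4 was higher in DMSO 3 and 4 (limma, 0.68 ± 0.13 SE on the log2 scale, adjusted p = 0.023), and PAK2 did not pass the test (adjusted p = 0.89). RHOA, a related GTPase, ranked at 99.8 ± 0.07. The scaffold GIT2 and the exchange factor ARHGEF6, which dock PAK to its activators, ranked at 92.0 ± 1.54 and 90.9 ± 3.66. Downstream, MAP2K1 ranked at 88.2 ± 1.36, LIMK2 at 60.5 ± 1.54 and LIMK1 at 59.7 ± 1.99, and NF2, an inhibitor of PAK, at 87.2 ± 1.25. The median of the 16 measured genes was 76.7.

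Lysosomal and redox genes ranked with the granule genes. CD68, a macrophage lysosomal glycoprotein, ranked at 99.70, 99.74, 99.72 and 99.58, the protease CTSD at 98.8 ± 0.36 and PSAP, the sphingolipid activator precursor, at 98.2 ± 0.38. Over the 16 measured of 32 listed lysosomal genes the median was 94.2, with LGMN, legumain, lowest at 28.3 ± 9.05. The 16 measured redox genes, of 27 listed, also had a median of 94.2. The peroxidase PRDX1 ranked at 99.6 ± 0.08, PRDX3 at 99.04 ± 0.20 and thioredoxin, TXN, at 99.7, 99.7, 98.9 and 98.4. In this list 2 were higher and 7 lower in DMSO 3 and 4 by limma, against 13.0% and 14.0% of all genes. MT2A, a metallothionein, fell furthest, from 96.55 and 96.34 to 80.80 and 76.95 (log2 difference -1.84, adjusted p = 0.0072 by limma).

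Energy genes were mixed. In complex IV of the respiratory chain COX6A1 ranked at 99.7 ± 0.15 and COX8A at 99.5 ± 0.10, while the muscle form COX7A1 ranked at 21.7 ± 4.99 and the testis form COX6B2 at 22.1 ± 3.25. Similarly, in glycolysis GPI ranked at 98.3 ± 0.60 and PGK1 at 91.0 ± 0.97, and the testis form LDHC at 4.41 ± 1.11. GAPDH, often used as a loading control, ranked at 62.7, 63.2, 75.8 and 75.3 and differed between the pairs by limma (0.74 ± 0.10 SE on the log2 scale, adjusted p = 0.012), and its many pseudogenes make its probe uncertain. Sterol synthesis was led by MSMO1 at 94.9 ± 1.36 and SQLE, squalene epoxidase, at 94.3 ± 1.95. In both complex IV and glycolysis the isoforms of other tissues held the lowest ranks.

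Cytokines were mostly low, with a small bright set. Their median over 32 genes was 34.1, 15 ranked at 25 or below, and 3 ranked above 75. MIF, a constitutive cytokine, ranked at 98.4, 98.4, 97.3 and 97.5, and CCL5, which attracts lymphocytes, at 96.9, 97.2, 98.8 and 98.1. TNF ranked at 87.3, 88.9, 93.0 and 67.4, highest in DMSO 3 and lowest in DMSO 4. CXCL8, the neutrophil attractant, ranked at 42.0 ± 5.28, CCL4 at 14.2 ± 6.58 and IL10 at 14.2 ± 4.47. The T cell cytokine IL2 ranked at 1.52 ± 0.45.

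Interferon-induced genes set DMSO 3 apart from the other arrays. The median rank of the 20 measured genes was 63.1, 63.2, 88.6 and 65.6 in DMSO 1 to 4, and all 20 ranked higher in DMSO 3 than in DMSO 4, against 47.4% of all genes. IFI44L, an interferon target, ranked at 73.7, 74.0, 99.6 and 87.0, and USP18, which dampens the receptor, at 82.4, 85.1, 99.5 and 92.5. IFIT1, a sensor of foreign RNA, ranked at 43.38, 45.68, 90.01 and 43.13. In IFI44L and USP18 DMSO 4 also lay above DMSO 1 and 2, and in IFIT1 it did not. These genes and the chemokines named next were picked after their values were seen.

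CXCL10, an interferon-induced attractant of lymphocytes, ranked at 14.1, 17.1, 98.0 and 43.3, the widest spread of any gene described here (SD 38.9). CXCL11, its relative, ranked at 29.9, 25.7, 69.7 and 40.0, and the monocyte attractant CCL2 at 45.19, 50.18, 82.95 and 20.08. The RNA sensors RIGI and IFIH1 were also highest in DMSO 3, at 79.1, 76.9, 95.8 and 84.7 and at 78.9, 76.9, 93.4 and 77.2. By limma 2 of the 20 interferon genes were higher in DMSO 3 and 4 and 0 lower, against 13.0% and 14.0% of all genes. The 2 were the transcription factors IRF9 (1.175 ± 0.155 SE on the log2 scale, adjusted p = 0.012) and IRF7 (adjusted p = 0.026). Without DMSO 3 the mean rank of CXCL10 was 24.8 and the median of the interferon list 63.4. What set DMSO 3 apart was not tested.

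**Figure D3:**
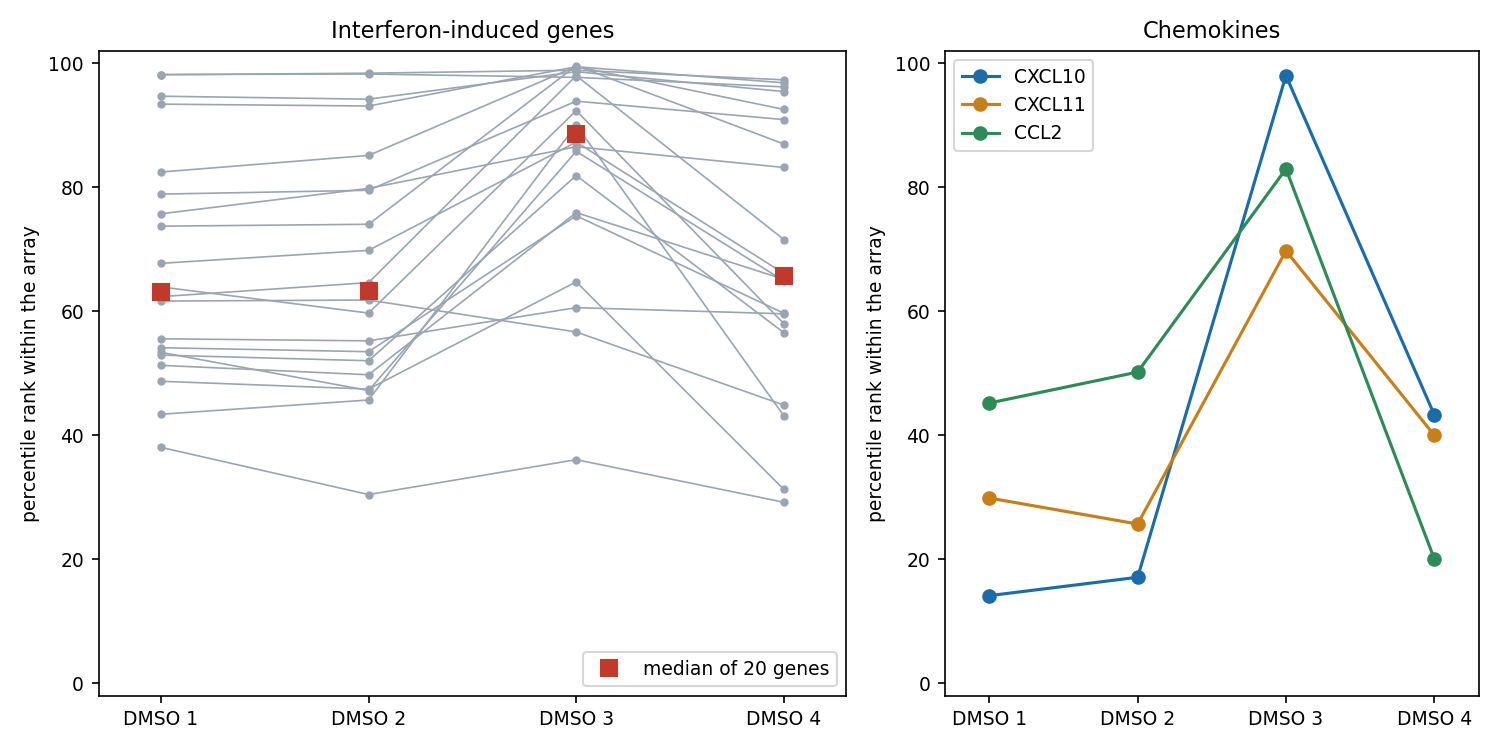
Percentile rank within each array (vertical axis) in the 4 DMSO arrays (horizontal axis) for 20 interferon-induced genes (left, grey, with red squares at their median) and for 3 chemokines (right), where lines only join the values of 1 gene and imply no order. The median of the interferon genes is 88.6 in DMSO 3 and 63.1 to 65.6 elsewhere, and CXCL10 is at 98.0 in DMSO 3.

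The bottom of the range was held by microRNA entries and by genes of other tissues. A mean rank of at most 5 in both pairs was found for 563 genes (3.78% of all genes), which was 77.3% of those at that level in either pair. MicroRNA entries made up 314 of them, or 55.8%, against 7.20% of all genes, and 159 coded for protein. The lowest protein-coding genes were RFPL3, at 0.09 ± 0.06, KRTAP9-9, a hair keratin-associated protein, at 0.49 ± 0.30, CFHR2, a liver complement factor, at 0.74 ± 0.25 and TSPAN19 at 0.78 ± 0.32. By kind of gene, the median rank was 56.6 for protein-coding genes, 31.8 for transcribed pseudogenes, 25.8 for long non-coding RNAs and 15.7 for microRNA entries. Values this low order background signal as well as RNA.

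Of the 1072 microRNA entries 342 (31.9%) ranked at 5 or below and 50 (4.66%) at 75 or above. The sequences shown are those of microRNAs known from myeloid cells and of microRNAs known from other tissues, since the entries of the former ranked high and of the latter low. They were chosen with the ranks known. The array value belongs to the gene entry and not to the mature arm. Mature sequences are from RefSeq, with the seed, bases 2 to 8, in capitals. MIR223, MIR142, MIR21, MIR196B and MIR155 are entries of blood cells and leukaemia.
hsa-miR-223-3p: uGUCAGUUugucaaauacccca
hsa-miR-142-3p: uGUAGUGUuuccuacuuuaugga
hsa-miR-21-5p: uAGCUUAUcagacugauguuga
hsa-miR-196b-5p: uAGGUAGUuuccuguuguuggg
hsa-miR-155-5p: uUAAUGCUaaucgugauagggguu
The entries of liver, muscle and endothelium and of the placental cluster on chromosome 19 follow.
hsa-miR-122-5p: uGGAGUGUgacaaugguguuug
hsa-miR-1-3p: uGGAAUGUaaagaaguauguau
hsa-miR-133a-3p: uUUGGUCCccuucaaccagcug
hsa-miR-126-3p: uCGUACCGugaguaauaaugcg
hsa-miR-519b-3p: aAAGUGCAuccuuuuagagguu
hsa-miR-519c-3p: aAAGUGCAucuuuuuagaggau
The mature forms lie, in GRCh38.p14, at chrX:66018937-66018958 on the plus strand for miR-223-3p, at chr17:58331245-58331267 on the minus strand for miR-142-3p and at chr18:58451088-58451109 on the plus strand for miR-122-5p.

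MIR21 ranked at 84.8 ± 3.50, MIR142 at 79.8 ± 6.59, MIR223, a marker of myeloid cells, at 78.8, 81.0, 78.5 and 75.7, MIR196B at 75.2 ± 10.51 and MIR155 at 60.7 ± 2.92. On the other side MIR122, the liver microRNA, ranked at 1.72, MIR133A1 at 3.02, MIR1-1 at 3.13 and MIR126, the endothelial microRNA, at 9.36. The 5 entries of blood cells lay more than 50 points above each of these 4, in sets chosen with the ranks known. Entries that share a seed with them spread further. The 3 with the MIR196B seed ranked between 12.01 and 75.16 and the 2 with the MIR21 seed between 64.25 and 84.82. The 4 with the MIR1-1 seed ranked between 0.24 and 20.46 and the 2 with the MIR133A1 seed between 3.02 and 23.42. MIR519B and MIR519C ranked at 0.12 and 0.10. They share the seed AAGUGCA with other entries, and the 4 entries with it ranked between 0.10 and 10.9. By name alone, 50 entries matched the numbering of the placental cluster. Their positions were not checked, so the match can take in entries from other loci. These 50 had a median of 4.26, and 28 of them (56.0%) ranked at 5 or below. Short precursors with similar sequences may share signal, so that single entries of the cluster are uncertain.

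Genes of other tissues and of other blood cells had list medians below rank 50. The 84 keratin-associated proteins of hair had a median of 15.01, with 16 at 5 or below in both pairs, and 1, KRTAP5-7, above 75 at 87.3 ± 1.32. The median was 16.3 for hepatocyte genes, 23.3 for neuronal genes, 28.1 for T cell genes, 28.2 for B cell genes, 29.9 for endothelial genes and 31.7 for epithelial genes. It was higher for erythroid genes, at 36.03, fibroblast genes, at 37.0, megakaryocyte and mast cell genes, at 38.1, NK cell genes, at 39.1, and striated muscle genes, at 44.6. The last 2 lay above the median of 38.6 for macrophage maturation genes. The members above rank 75 were few: KRT18, a simple keratin, at 90.01 ± 1.97, VIM, vimentin, which leukocytes also carry, at 91.9 ± 4.39, TWIST1 at 77.6 ± 2.40, PECAM1, shared by monocytes, at 82.4 ± 3.20, NKG7, and PRAME, a tumour antigen known from leukaemias, at 77.7 ± 6.47. KRT8 of the epithelial list ranked lower, at 53.8 ± 10.01, and whether the KRT18 probe reads that gene or a copy was not checked. DCN, decorin of fibroblasts, ranked at 2.59 ± 0.50 and FGG, fibrinogen gamma of liver, at 1.66 ± 0.75. The promoter of KRTAP4-12, which ranked at 1.95, 1.20, 1.87 and 2.90, is shown as the lowest-ranked of its family with a TATAA between -40 and -16. It lies at chr17:41124153-41124282 on the minus strand in GRCh38.p14, and capitals mark the TATAA.
KRTAP4-12 promoter: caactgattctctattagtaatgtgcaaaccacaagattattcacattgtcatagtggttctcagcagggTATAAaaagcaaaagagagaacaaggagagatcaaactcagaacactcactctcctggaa
In contrast to the ribosomal promoters it has a CpG ratio of 0.0959, and 38 of 70 sequenced members of its family (54.3%) hold a TATAA in that interval.

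Promoter composition changed along the whole range of ranks. Of protein-coding genes with a sequence, 24.3% had a CpG ratio of at least 0.6 at ranks under 5, 40.1% at 5 to 25, 57.9% at 25 to 50, 81.4% at 50 to 75, 89.0% at 75 to 95 and 88.4% at 95 or above. TATAA between -40 and -16 went the other way up to rank 95, from 19.5% at ranks under 5 to 1.55% at 75 to 95, and was 4.89% at 95 or above, against 5.23% over all. The mitosis genes all had CpG-rich promoters, 25 of 25, whereas 7 of 32 monocyte surface genes (21.9%) and 0 of 7 granule genes did. These are descriptions of annotated starts, and a match is not a bound site.

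**Figure D4:**
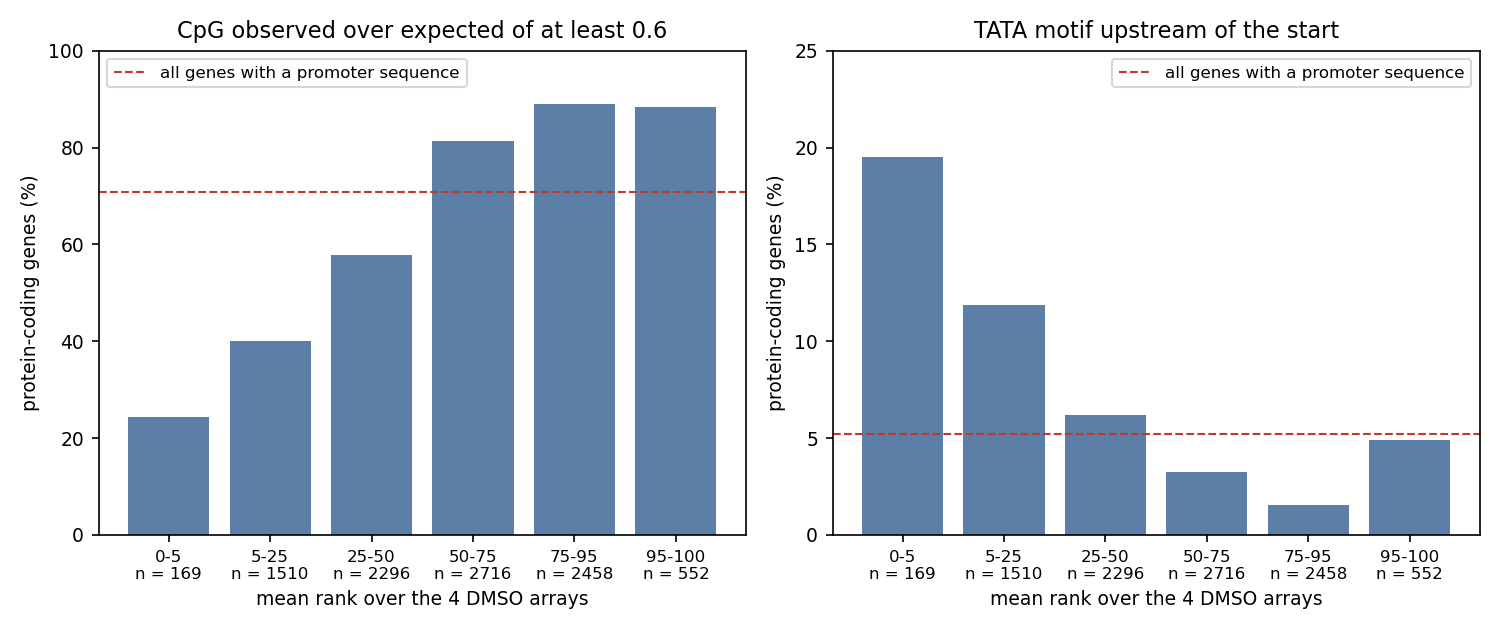
Share of protein-coding genes (vertical axes, %) whose promoter has a CpG observed-over-expected ratio of at least 0.6 (left) or a TATA motif between -40 and -16 (right), by band of mean rank over the 4 DMSO arrays (horizontal axes, with the number of genes per band); dashed lines give the share over all 9701 genes with a sequence. The CpG share is 24.3% in the lowest band and 88.4% in the highest, and the TATA share is 19.5% in the lowest.

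Rank was kept best at both ends. A gene was said to keep its rank where the means of the pairs differed by at most 5 points, and 8627 genes (58.0% of all genes) did. The share was 98.96% at ranks of 95 or above and 89.7% under 10, where ranks have little room, and 46.1% between 50 and 75. Ranks within a pair were closer than between pairs: the median absolute difference was 1.29 points between DMSO 1 and 2, 2.30 between DMSO 3 and 4 and 4.04 between the pair means. Differences above 20 points occurred in 3 genes between DMSO 1 and 2 and in 161 between DMSO 3 and 4, of which 109 were higher in DMSO 3. Among the classes with a high median, 15 of 18 replication genes, 15 of 18 tRNA synthetases and 10 of 12 granule genes kept their rank, against 78.3% of all genes at ranks of 90 to 95 and 98.96% at 95 or above. Of the interferon-induced genes 7 of 20 did and of the immediate early genes 8 of 21, against 46.1% of all genes at ranks of 50 to 75, where their medians lie. Among classes of lower median, 2 of 7 neuronal genes and 10 of 12 hepatocyte genes kept their rank. Both medians lie at ranks of 10 to 25, where 58.1% of all genes did. These shares were not tested.

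**Figure D5:**
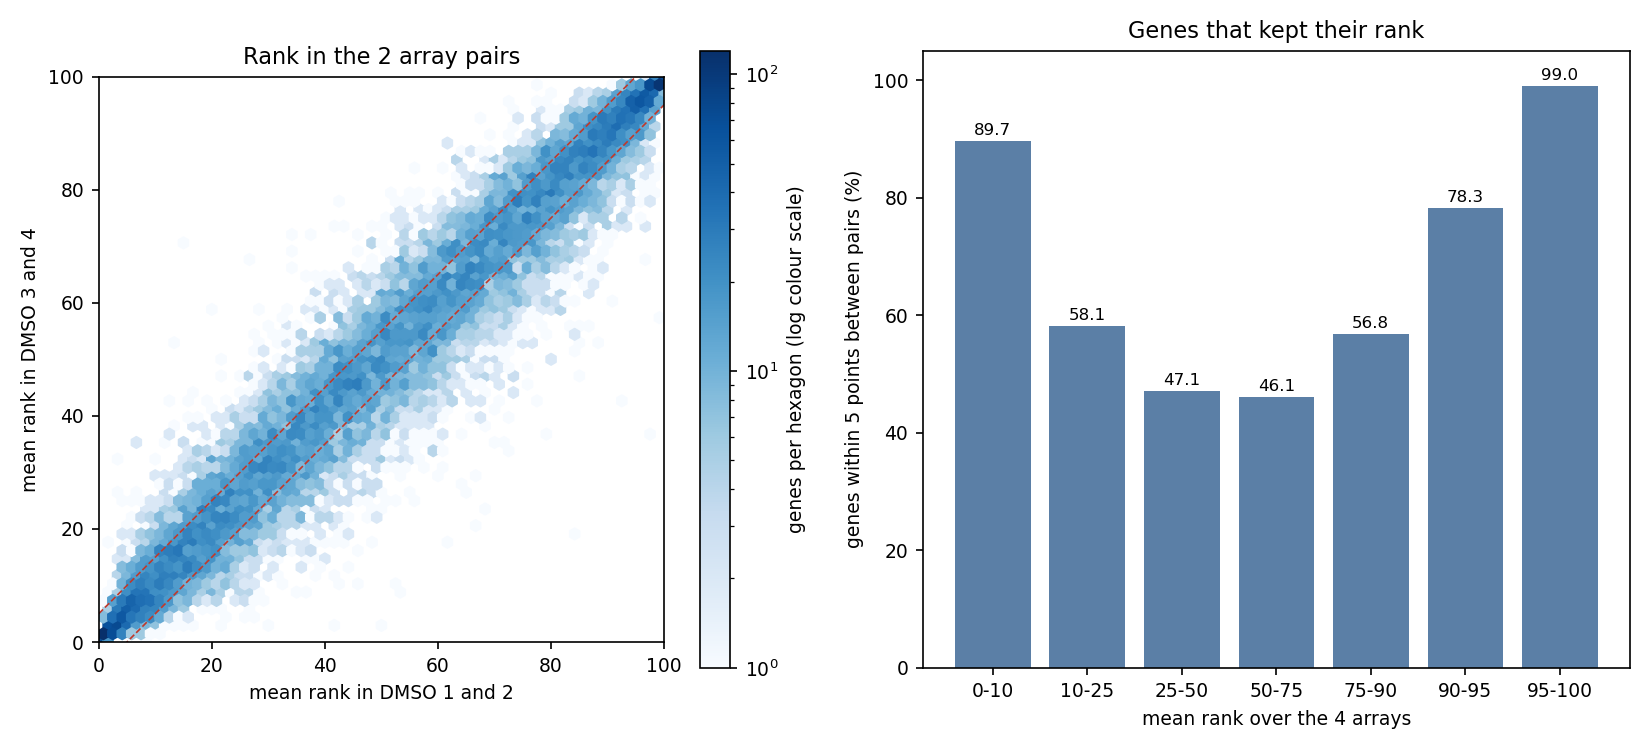
Left, mean rank in DMSO 3 and 4 (vertical axis) against mean rank in DMSO 1 and 2 (horizontal axis) with colour for the number of genes per hexagon on a log scale and dashed lines at a difference of 5 points. Right, share of genes (vertical axis, %) whose pair means differ by at most 5 points, by band of mean rank (horizontal axis), from 98.96% in the highest band to 46.1% between 50 and 75.

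Between the pairs limma called 4022 of 14884 genes at an adjusted p under 0.05, 1938 higher in DMSO 3 and 4 (13.0%) and 2084 lower (14.0%). Leaving out DMSO 1 or DMSO 2 gave 0 calls by limma, with 3553 and 3604 genes at an unadjusted p under 0.05, whereas leaving out DMSO 3 gave 5912 calls and DMSO 4 gave 5358. On the values as deposited, without quantile normalization, the median of all genes was 0.48 higher in DMSO 3 and 4 and limma called 8403 higher and 776 lower, so every direction between pairs is relative to the bulk of genes. Of the 2084 genes called lower, 278 were higher on the deposited scale, among them RPL28 of the ribosomal list and CHIT1 of the macrophage list. Since the pairs were recognised from these values, the p-values describe these 4 arrays. Rank differences above 20 points, with no overlap between the pairs, were found in 325 genes, 125 higher and 200 lower in DMSO 3 and 4.

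Small RNAs held many of the largest falls. The 23 small Cajal body RNAs, which guide the modification of spliceosomal RNAs, had a median rank of 74.1, and 16 were lower and 2 higher in DMSO 3 and 4 by limma, against 14.0% and 13.0% of all genes. Of the 23, 2 kept their rank, or 8.70%, against 46.1% of all genes at ranks of 50 to 75. SCARNA23 fell from 51.7 and 47.6 to 3.33 and 4.06 and SCARNA14 from 43.9 and 40.8 to 12.3 and 9.55, while SCARNA2 rose from 73.32 and 72.31 to 84.63 and 84.95. SCARNA12, the brightest, did not pass the test, at 96.8, 96.7, 98.0 and 93.8. Among the SNAR transcripts, short RNAs of primates, SNAR-H ranked at 99.2, 99.2, 70.6 and 45.6 and SNAR-B1 at 99.99, 99.99, 99.07 and 94.48, whereas SNAR-I lay between 70.0 and 76.7. The SNAR entries were named after their values were seen, and their near-identical copies may share signal. Whether recovery of short RNAs differed between the pairs was not tested.

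The largest falls that passed limma were MIR4481, from 84.4 and 83.0 to 19.2 and 20.1, the long non-coding RNA LOC100287834, from 97.68 and 97.50 to 33.27 and 40.95, and MIR502, from 93.9 and 91.1 to 36.2 and 49.1. Among protein-coding genes CCDC112, a centriolar satellite protein, fell from 68.45 and 64.05 to 23.73 and 17.29, and MED18, a Mediator subunit, from 49.0 and 58.3 to 8.89 and 9.57. Of the 10 largest rises 7 were in protein-coding genes, against 4 of the 10 largest falls. EDIL3, an integrin ligand, rose from 12.7 and 13.6 to 47.5 and 58.0, with a log2 difference of 2.24 ± 0.20 (SE) at an adjusted p of 0.0074, and ARHGEF35 from 22.52 and 17.65 to 56.08 and 61.35. NEGR1, a neuronal adhesion protein, rose from 36.97 and 32.35 to 64.72 and 74.45. RPP25, a subunit of RNase P and MRP, rose from 54.0 and 56.1 to 84.3 and 84.0.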

How the data were processed

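RNA of THP-1 cells was labelled for Affymetrix whole-transcript arrays. The authors deposited log2 values per probe for each array, and Affymetrix Expression Console and Transcriptome Analysis Console are named per the submitters' processing notes. For their summarisation and normalization a method is not stated in the labels or headers. Labels gave the 4 DMSO samples, and depth does not apply to arrays, whose number limits the precision. Ranks were computed with Python 3.11.15, pandas 2.3.3 and numpy 2.4.6 and plotted with matplotlib 3.10.9. The pairs were compared with limma 3.58.1 in R 4.3.3 on quantile-normalized log2 values, with Benjamini-Hochberg adjustment over 14884 genes, and the script was tested on simulated data. Of 58 gene lists 49 had a measured member. Members and lists were chosen with earlier results of these data known. Named were the 25 highest genes, the 15 highest outside protein synthesis, energy and structure, the 10 lowest protein-coding genes, the 10 largest rises and falls between pairs, the 3 highest and 2 lowest of each list, all members of the MLL, transcription factor, granule, PAK and tumour suppressor lists, and members of other-tissue lists above rank 75. Other genes were chosen after their values were seen. Promoters and microRNAs are from RefSeq (GRCh38.p14), with a promoter for 9701 of the 11909 protein-coding genes searched and a mature sequence for 979 of 1072 microRNA entries. Alternatives were other probe rules, ranking sets, thresholds, scalings and each array left out.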

Additional observations from a re-analysis of the deposited data

Results flagged for a closer look

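In a group of 4 arrays, an array was singled out where its gap to the nearest other, divided by the range, was above Dixon's critical value for that number of arrays. With independent arrays chance singles out about 1 in 20 groups. Here 15 of 236 named genes and 3 of 49 list medians were singled out. These counts cannot be set against that share, because the arrays formed pairs and some genes were named after their values were seen. None had DMSO 1 or DMSO 2 as the array singled out. These arrays lay close together (median absolute difference 1.29 points), so neither could readily stand alone.

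DMSO 3 was highest in IFIT1, at a rank of 90.01 against a median of 43.38 in the other arrays, in IFIH1, a sensor of viral RNA, at 93.4 against 77.24, and in GPNMB, a macrophage glycoprotein, at 94.94 against 77.16. It was also highest in PAX5, at 76.48 against 46.61, and in ZEB2, at 97.41 against 96.53. DMSO 3 was lowest in CFD, at 97.19 against 99.21, and in TERC, at 94.54 against 95.91. Over lists, the median of the interferon-induced genes was 88.64 in DMSO 3 against 63.21, that of the epithelial markers 33.44 against 29.23, and that of the chromatin and polycomb regulators 84.43 against 86.43.

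DMSO 4 was lowest in the monocytic genes CSF1R, at 87.38 against 96.22, and MNDA, at 86.29 against 95.48, and in PRAME, at 68.0 against 81.04. It was lowest as well in COX6B2, at 17.29 against 23.78, NARS1, at 98.93 against 99.33, RMRP, at 99.66 against 99.96, and SNAR-B1, at 94.48 against 99.99. It was highest in PF4, at 60.96 against 55.81.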

How the results depend on the processing

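No paired analysis was possible because only 1 group was used, so that no replicate number is shared between groups. The 523 genes of the top became 1167 at a rank of at least 90 and 94 at 99, and the 563 of the bottom became 1181 at a rank of at most 10 and 97 at 1, by construction. The bottom held 173 genes when ranks were taken among all probes, where unnamed probes fill the low end. The 8627 genes that kept their rank became 5093 at 2.5 points and 5021 where all 4 arrays had to lie within 5 points. The limma calls, 4022, became 9179 on deposited values and 10669 of 53617 with every probe as a feature, and ranged from 0 to 5912 with 1 array left out. The causes were not tested. On deposited values 278 of the 2084 genes called lower were higher in DMSO 3 and 4, among the listed genes RPL28, HOXB7, CHIT1, PRF1, EPCAM, TAGLN and GAGE10, and 0 of the 1938 called higher were lower. Leaving out 1 array moved between 13 and 20 of 236 named genes by more than 5 points. Ranking among all probes raised the list medians by a median of 10.89 points, and ranking among protein-coding genes changed them by a median of -5.12. The number of arrays and the absence of detection calls limit what low ranks can show.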

Other observations

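Genes that decide between survival and death ranked unevenly. In the BCL2 family, 14 measured genes had a median rank of 65.7. MCL1, which blocks mitochondrial death signals, was highest at 94.4, and PMAIP1, also called NOXA, which binds it, ranked at 90.7. BCL2 ranked at 88.0 and the effector BAK1 at 88.2, while BCL2A1, a relative of MCL1, ranked at 35.5 and BIK at 34.2. Among immediate early genes, which respond to growth factors and stress, EGR1 ranked at 92.1 and FOS at 86.0, and ATF3, DUSP5 and MAFF at 41.0, 39.1 and 36.3. In chromatin regulation SUZ12, a polycomb subunit, ranked at 98.5 and the maintenance methyltransferase DNMT1 at 97.1, against 48.6 for the DNA methyltransferase DNMT3B.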
